A study of Mus musculus with 4 samples.

Results

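The genes described here encode the machinery of cell division: the kinases, cyclins, kinetochore proteins, spindle motors and chromosome proteins that a cell assembles to segregate its chromosomes. The list holds 50 genes chosen by name. A gene was measured where the platform annotation gave a probe set exactly 1 symbol, and a gene's probe sets were averaged. Under that rule 49 of the 50 were measured, of 19935 genes in all, and Ccnb1 (cyclin B1) was not analysed here. The 49 were read by role, as 9 kinases, 8 cyclins and cell cycle regulators, 9 kinetochore, centromere and checkpoint genes, 9 spindle motors, 8 passenger complex, spindle and cytokinesis genes, and 6 chromosome structure genes.

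RNA came from Baf3 cells, an established murine pro-B line whose growth depends on the cytokine IL-3, and was hybridised to 4 Gene 1.0 ST arrays. The parental line was grown with IL-3 (1 array). A derived line carrying a doxycycline-inducible BCR-ABL (the leukaemia fusion protein with an always active tyrosine kinase) was grown with doxycycline at 500 ng/ml, either without IL-3 (2 arrays, A and B) or with IL-3 (1 array). All cells were taken in logarithmic growth, and the series asks which genes the kinase and the growth factor drive in connection with resistance to imatinib, a drug that none of the 4 samples is labelled as having received. It is not labelled whether A and B were separate cultures, whether the derived line was 1 clone, or whether the parental cells received doxycycline. The derived line, the doxycycline and BCR-ABL therefore cannot be told apart in any comparison with the parental array, and for arrays A and B neither can the absence of IL-3.

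Mitosis is driven by cyclin-dependent kinase activity together with the Polo and Aurora kinases. Kinetochores built on centromeric chromatin attach chromosomes to the spindle, the checkpoint holds separase back until all are attached, and kinesins and the central spindle then separate and divide the cell. Transcripts of many of these genes accumulate late in the cell cycle, through promoters that often combine CCAAT boxes, bound by the factor NF-Y, with a cell cycle homology region (CHR) read by DREAM, MuvB and FOXM1 complexes.

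RefSeq promoter windows of 300 bases, running from 250 before to 50 after an annotated start (build GRCm38.p6), were on hand for 40 of the 49 genes. They comprised 45 windows, because 4 genes had several. CCAAT was searched on both strands, so that ATTGG also counted. The CHR was searched as TTTGAA or TTCGAA on both strands, so that TTCAAA also counted, and 1 pair of matches to the 2 motifs overlapped. CCAAT was present in 77.8% of these windows against 37.4% of all 32851 windows. A CHR match was present in 75.6% against 19.2%. Both were present in 66.7%, in 27 genes, against 7.52% of all windows. The 4 windows printed here are those that hold both motifs and belong to the genes with the lowest values with IL-3 relative to without. Capitals mark the motif matches, and each sequence reads 5′ to 3′ on the gene's own strand.
Ccnf (cyclin F, chr17:24251360-24251659, minus strand): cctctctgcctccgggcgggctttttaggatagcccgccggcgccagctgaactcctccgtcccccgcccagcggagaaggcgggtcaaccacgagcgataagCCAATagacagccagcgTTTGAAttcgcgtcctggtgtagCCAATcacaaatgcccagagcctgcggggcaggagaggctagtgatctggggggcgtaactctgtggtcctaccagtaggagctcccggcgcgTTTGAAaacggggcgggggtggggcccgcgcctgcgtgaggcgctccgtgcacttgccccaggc
Kif22 (a chromokinesin, chr7:127042371-127042670, minus strand): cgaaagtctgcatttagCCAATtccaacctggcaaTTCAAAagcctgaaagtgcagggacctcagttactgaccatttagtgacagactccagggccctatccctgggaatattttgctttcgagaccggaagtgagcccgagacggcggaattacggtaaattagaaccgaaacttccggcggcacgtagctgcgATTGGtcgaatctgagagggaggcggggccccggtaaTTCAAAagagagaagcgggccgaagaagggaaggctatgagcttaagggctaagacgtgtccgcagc
Espl1 (separase, chr15:102296043-102296342, plus strand): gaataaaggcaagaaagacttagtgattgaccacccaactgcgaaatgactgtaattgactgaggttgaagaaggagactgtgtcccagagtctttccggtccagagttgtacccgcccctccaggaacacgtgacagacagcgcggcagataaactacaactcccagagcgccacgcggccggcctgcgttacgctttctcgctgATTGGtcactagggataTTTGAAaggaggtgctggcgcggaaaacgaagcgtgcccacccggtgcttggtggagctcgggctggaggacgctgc
Plk1 (Polo-like kinase 1, chr7:122159185-122159484, plus strand): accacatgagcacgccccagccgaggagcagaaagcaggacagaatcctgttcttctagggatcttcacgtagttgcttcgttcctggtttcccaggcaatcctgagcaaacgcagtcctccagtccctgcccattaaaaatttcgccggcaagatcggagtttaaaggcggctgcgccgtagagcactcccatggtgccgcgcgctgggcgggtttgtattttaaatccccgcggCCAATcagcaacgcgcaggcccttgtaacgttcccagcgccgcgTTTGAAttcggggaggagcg

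In the Ccnf window the CCAAT matches began at -147 and -107 from the start, and the CHR matches at -130 and -14. Espl1 had its single CCAAT match at -44 and its single CHR match at -27. In Plk1 the CCAAT match lay at -14 and the CHR match at 30, after the start. Over the 45 windows the 69 CCAAT matches had a median position of -65, and the 48 CHR matches a median of -16. In 30 windows a CHR match followed a CCAAT match, with a median of 32 bases between the first base of each. Such a pair within 60 bases, a limit set after the positions were seen, occurred in 55.6% of these windows and in 2.1% of all windows. Matches are letters in a window, and binding was not measured. Cenpk, the gene with the lowest value of the list in the comparison with IL-3, had CCAAT but no CHR match in its 3 windows. The windows of Nuf2, Kif18a, Mad2l1, Plk4, Nusap1 and Birc5 held neither motif.

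**Figure D1:**
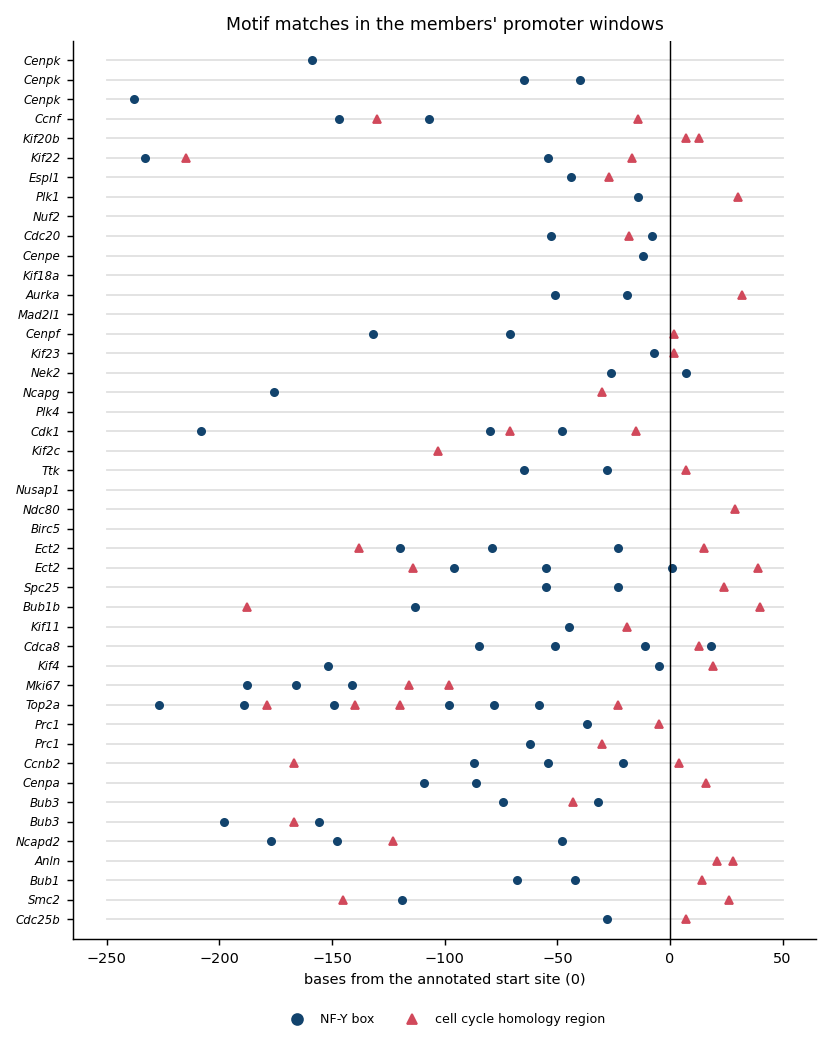
Positions of CCAAT matches (NF-Y boxes, circles) and CHR matches (triangles) in the 45 promoter windows, 1 row a window, in bases from the annotated start at 0; genes run from the lowest to the highest difference with IL-3 relative to without. CHR matches gather near the start (median -16) and CCAAT matches lie further upstream (median -65).

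Every value in the deposited table was taken as a log2 difference from the parental array, which stands at 0 for every probe set. A negative value is a signal below that of the parental cells, and the level of a gene cannot be read. Across the 49 genes the median was -0.18 on array A (range -0.74 to 0.19), 0.04 on array B (-0.67 to 0.63) and -0.44 on the array with IL-3 (-1.13 to 0.02). The median over all genes on the same arrays was 0.00, -0.08 and 0.01. The array with IL-3 was the lowest of the 4 for 44 of the 49 genes, which is 89.8%, against 15.3% of all genes. The highest array was B for 26 genes, the parental array for 20 and A for 3. In RNA of whole cell populations, fewer cells in mitosis and less of these transcripts in each cell cannot be told apart.

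**Figure D2:**
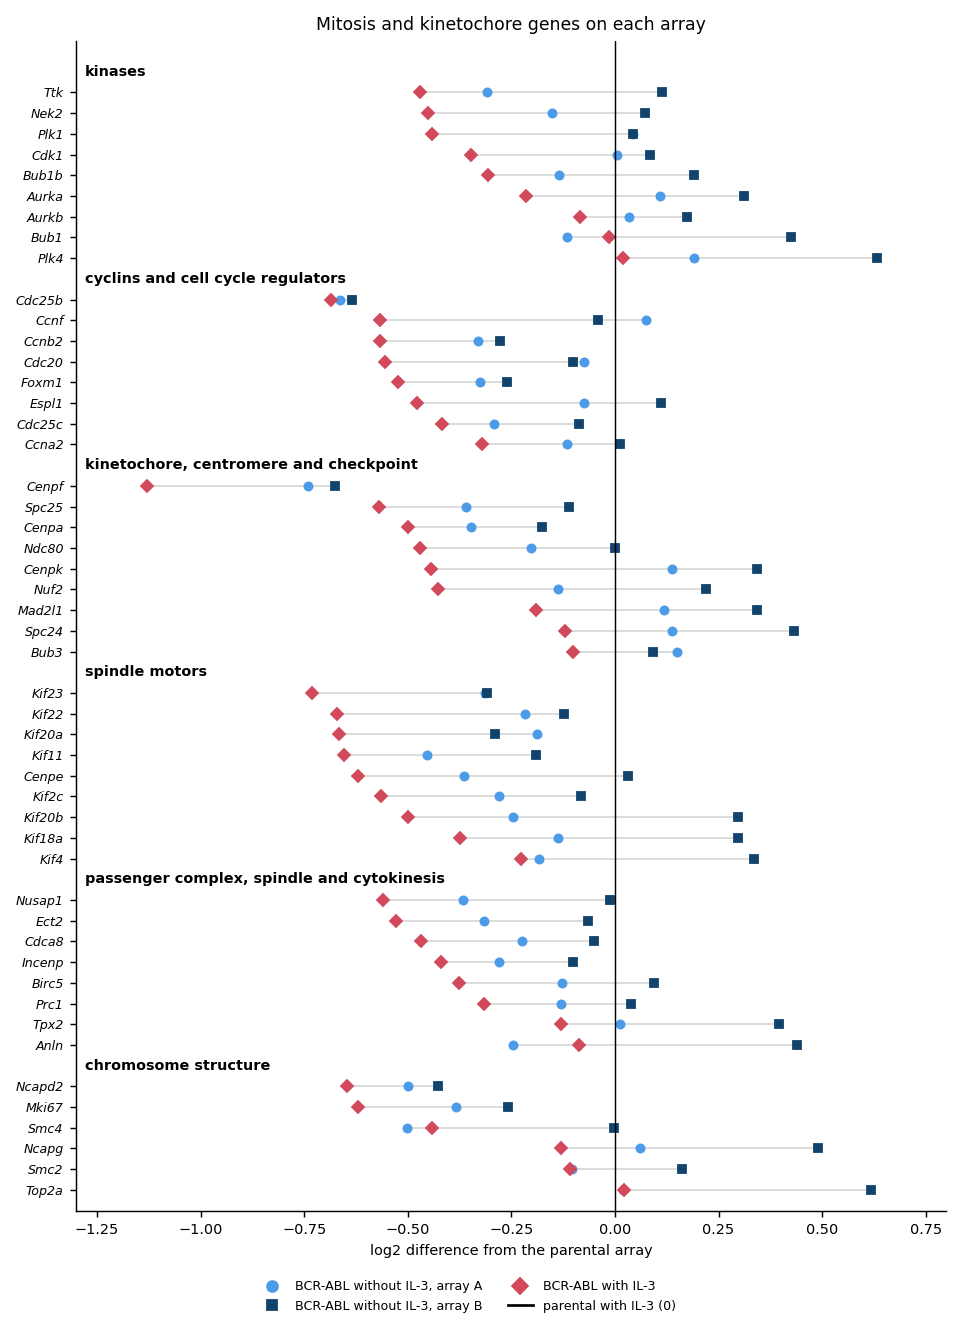
Log2 difference from the parental array (vertical line at 0) for each of the 49 genes on arrays A and B (BCR-ABL without IL-3) and on the array with IL-3, grouped by role. The array with IL-3 lies furthest left for 44 of 49 genes, and Cenpf stands apart at -1.13.

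The first comparison asks what BCR-ABL signalling in place of IL-3 did to these genes. Of the 49, 2 fell without IL-3 relative to the parental line, Cenpf and Cdc25b, and none rose (limma, Benjamini-Hochberg adjusted p under 0.05 over 19935 genes). Among all genes 2.87% fell and 5.19% rose by the same rule. At an unadjusted 0.05 the counts over the 49 were 3 lower and 1 higher, against 6.86% and 9.76% of all genes. Arrays A and B were both below parental for 20 genes, both above it for 12 and on either side of it for 17. The shares over all genes were 42.0%, 27.9% and 30.1%, so this split was near the background. The median difference was -0.05 (range -0.71 to 0.41), beside -0.04 over all genes. With array A left out this median was 0.04, and with array B left out it was -0.18, so its sign rests on which array is used.

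Cenpf, a large kinetochore protein that peaks late in the cell cycle (probe set 10360985; start window chr1:189688037-189688336), read -0.74 on A, -0.67 on B and -1.13 with IL-3. Its mean without IL-3 was 1.63-fold lower than parental, a log2 difference of -0.71 ± 0.15 (SE; limma adjusted p = 0.00584). All 3 BCR-ABL arrays lay below parental, and A and B were 0.07 apart. Cdc25b, the phosphatase that starts to activate Cdk1 at mitotic entry (probe set 10476252; start window chr2:131186698-131186997), read -0.66 on A, -0.64 on B and -0.69 with IL-3. It was 1.57-fold lower without IL-3 than in parental cells, a difference of -0.65 ± 0.15 (SE; limma adjusted p = 0.0109). Its 3 BCR-ABL arrays lay close together, all below parental. With each array centred on its median the Cdc25b difference was -0.61 and the adjusted p 0.0510, which ends its call, and the Cenpf adjusted p was 0.0447. The next lowest was Ncapd2, a condensin subunit, at -0.46 (adjusted p = 0.0787). The highest was Plk4, the kinase that starts centriole duplication, at 0.41 (adjusted p = 0.227), with 0.19 on A and 0.63 on B. Both A and B were at least 1.5-fold below parental for Cenpf and Cdc25b alone of the 49, against 1.73% of all genes. For 0 of the 49 were both at least 1.5-fold above, against 3.18% of all genes.

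The second comparison sets cells with IL-3 against cells without it while BCR-ABL was on, with 1 array against 2. An effect of IL-3 cannot be told apart from a deviation of the single array with IL-3 or of its culture. None of the 49 genes passed (limma adjusted p between 0.362 and 1.00), and across all genes 1 did, which is 0.00502%. At an unadjusted 0.05, 25 of the 49 were lower with IL-3 and 0 higher. Among all 19935 genes 3.0% were lower and 303 genes were higher. All 49 estimates were below 0 on the deposited scale, as were 7854 of all 19935 genes. With each array centred on the reference genes, 48 of the 49 were below 0. The median of the 49 on the deposited scale was -0.36 (range -0.68 to -0.04), beside 0.03 over all genes. The array with IL-3 lay below both A and B for 45 of the 49, or 91.8%, against 25.5% of all genes. Bub1, Anln, Top2a and Smc4 were the 4 exceptions, and in each the array with IL-3 lay between A and B, in Top2a through 1 dim probe set of its 2. With each array centred on its median the count was 45, beside 36.3% of all genes, and with centring on the reference genes it was 42, beside 11.6%.

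Array B ran above array A in this gene list. B was higher for 44 of the 49, or 89.8%, whereas it was higher for 33.8% of all genes, and the median of B minus A was 0.20. The median of the array with IL-3 was -0.23 relative to A and -0.47 relative to B. The difference between the 2 arrays of 1 group was thus close in size to the difference between A and the array with IL-3, and its part in the result was not tested. The only estimate of spread in the fit is this pair, with 1 residual degree of freedom, and the fit takes each single array to have the same spread.

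**Figure D3:**
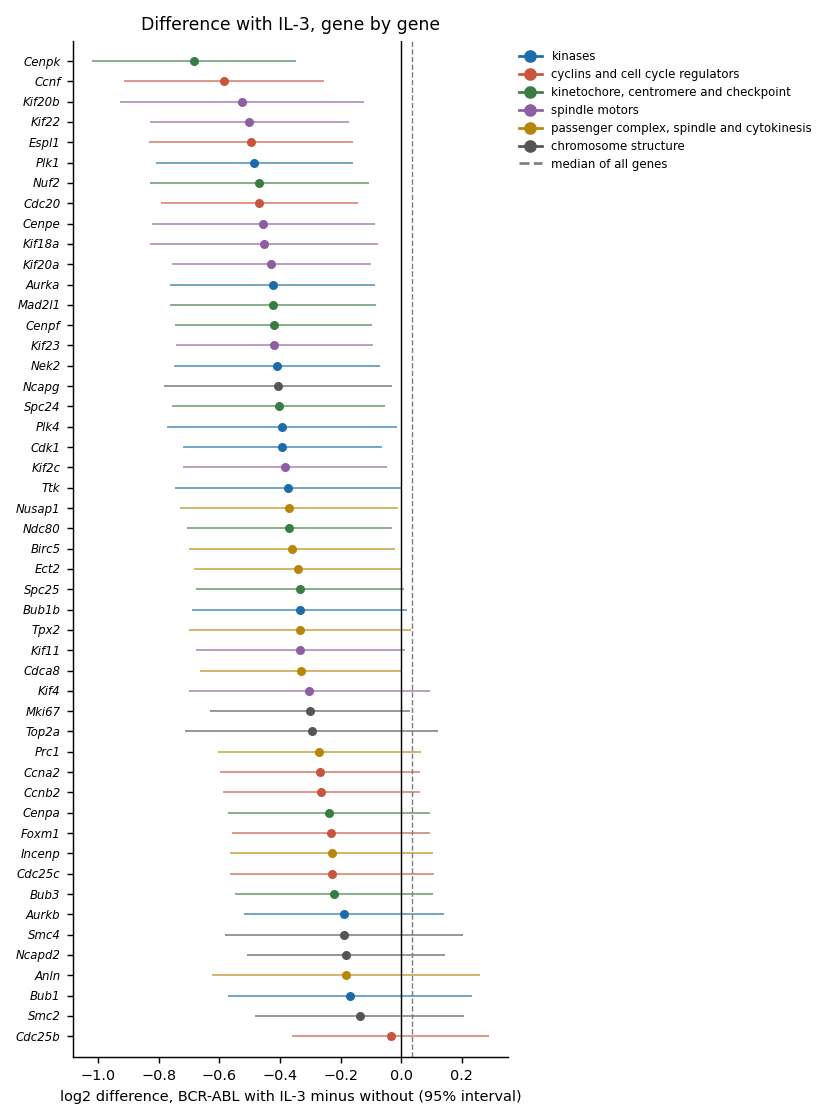
Log2 difference of the array with IL-3 from the mean of A and B for each of the 49 genes (points) with the limma 95% interval (bars), coloured by role; the dashed line is the median of all genes, 0.03. Cenpk is lowest at -0.68 and Cdc25b highest at -0.04, and the intervals of 25 genes end below 0 before adjustment.

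The third comparison sets the array with IL-3 against the parental array, both grown with the cytokine, and has 1 array a side and so no test. The array with IL-3 was lower for 47 of the 49, all but Plk4 and Top2a, against 47.4% of all genes. Top2a stood above parental through its dim probe set only. It was at least 1.5-fold lower, 0.58 on the log2 scale, for 9 of them (18.4%), against 2.53% of all genes. For 0 of the 49 was it 1.5-fold higher, against 3.3% of all genes. Spindle motors made up 5 of the 9, namely Kif23 at -0.73, Kif22 at -0.67, Kif20a at -0.67, Kif11 at -0.65 and Cenpe at -0.62. The others were Cenpf at -1.13, the sole gene past 2-fold, Cdc25b at -0.69, Ncapd2 at -0.65 and Mki67 at -0.62. Just short of the limit lay Spc25, Ccnf and Ccnb2, each at -0.57. The 3 comparisons share arrays, so their values for a gene are not independent.

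**Figure D4:**
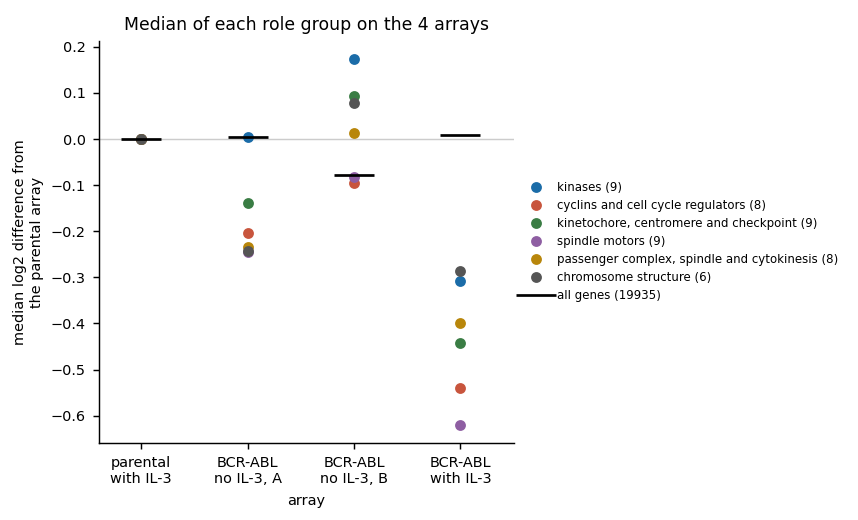
Median log2 difference from the parental array for each of the 6 role groups on the 4 arrays (points, number of genes in the key), with the median over all genes as a bar. On the array with IL-3 the groups spread from -0.29 for chromosome structure to -0.62 for spindle motors, while all genes stand at 0.01.

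The 9 kinases had medians of 0.00 on A and 0.17 on B, and -0.31 with IL-3. Plk1, which drives mitotic entry, spindle assembly and cytokinesis, read 0.04 on A, 0.04 on B and -0.44 with IL-3. It had the lowest value of the kinases with IL-3 relative to without, at -0.48 (95% interval -0.81 to -0.16; limma adjusted p = 0.716). Both arrays without IL-3 were close to parental, and the array with IL-3 lay apart from them. Cdk1, the kinase that cyclins A and B switch on, followed the same order with 0.00, 0.09 and -0.35. Aurka, which matures centrosomes and builds the spindle, read 0.11, 0.31 and -0.21, above parental on both arrays without IL-3 and below it with IL-3. Nek2, a centrosome-separating kinase, read -0.15, 0.07 and -0.45, and Ttk, the checkpoint kinase Mps1, read -0.31, 0.11 and -0.47. Bub1b, which encodes the checkpoint protein BubR1, read -0.13, 0.19 and -0.31. The smallest differences with IL-3 among the kinases were those of Aurkb, the catalytic part of the passenger complex, at -0.19 and Bub1 at -0.17. Bub1, a checkpoint kinase at kinetochores, read -0.12 on A, 0.42 on B and -0.01 with IL-3, so that the pair without IL-3 enclosed the array with it. Plk4 on the array with IL-3 was at 0.02.

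The 8 cyclins and regulators had medians of -0.20 on A, -0.09 on B and -0.54 with IL-3, and all 8 had the array with IL-3 lowest. Ccnf, an F-box cyclin that targets proteins for destruction, read 0.08 on A, -0.04 on B and -0.57 with IL-3. Its difference with IL-3 was -0.59 (95% interval -0.91 to -0.26; adjusted p = 0.460), 1.5-fold lower. The pair without IL-3 lay close to parental on either side of it, and the array with IL-3 stood well away. Espl1, the separase that cuts cohesin at anaphase, read -0.07, 0.11 and -0.48. Cdc20, the anaphase-promoting complex activator that the checkpoint restrains, read -0.07, -0.10 and -0.56, the array with IL-3 again apart from a tight pair. The cyclins Ccna2 and Ccnb2 differed by -0.27 and -0.26 with IL-3. Ccnb2 was already below parental without IL-3, with -0.33 on A and -0.28 on B, whereas Ccna2 was at -0.12 and 0.01. Foxm1, the transcription factor of the late cell cycle genes, read -0.33, -0.26 and -0.52. Cdc25c read -0.29, -0.09 and -0.42, while Cdc25b had the smallest difference with IL-3 of all 49, at -0.04 (95% interval -0.36 to 0.29).

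The 9 kinetochore, centromere and checkpoint genes had medians of -0.14 on A, 0.09 on B and -0.44 with IL-3, and the array with IL-3 was lowest for all 9. Cenpk, an inner kinetochore subunit, read 0.14 on A, 0.34 on B and -0.44 with IL-3. Its difference of -0.68 (95% interval -1.02 to -0.35; adjusted p = 0.362) was the largest in size of the 49 and 1.61-fold. It was above parental without IL-3 and below it with IL-3. The 4 subunits of the NDC80 complex, which holds microtubules, were all in the list and had no common level without IL-3. Spc24 was above parental on A at 0.14 and on B at 0.43, and Spc25 below it at -0.36 and -0.11. Ndc80 read -0.20 and 0.00, and Nuf2 read -0.14 and 0.22. On the array with IL-3, Spc24 read -0.12, Spc25 -0.57, Ndc80 -0.47 and Nuf2 -0.43, so Spc24 still stood above the others. Their differences with IL-3 relative to without were -0.40 for Spc24, -0.33 for Spc25, -0.37 for Ndc80 and -0.47 for Nuf2. Mad2l1, the checkpoint protein Mad2, read 0.12, 0.34 and -0.19. Its partner Bub3 read 0.15, 0.09 and -0.10, with the smallest difference of the group at -0.22. Cenpa, the centromeric histone H3 variant, read -0.35, -0.18 and -0.50. Cenpf, which fell without IL-3 relative to parental, differed by -0.42 with IL-3 relative to without (95% interval -0.74 to -0.10). That difference did not pass after adjustment.

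The 9 spindle motors were the lowest group on the array with IL-3, with a median of -0.62 beside -0.25 on A and -0.08 on B. All 9 were below parental on array A, 5 were on array B, and the array with IL-3 was lowest for all 9. Kif23, a central spindle motor needed for cytokinesis, read -0.31 on A, -0.31 on B and -0.73 with IL-3, a pair in near coincidence and a lone array apart. Kif20a, which works with it at the central spindle, read -0.19, -0.29 and -0.67. Kif22 read -0.22, -0.12 and -0.67, a difference with IL-3 of -0.50 (95% interval -0.82 to -0.18; adjusted p = 0.657). Kif20b had a lower estimate, -0.53, but its pair without IL-3 was wide, at -0.25 and 0.30. Kif11, the Eg5 motor that makes the spindle bipolar, read -0.45, -0.19 and -0.65. Cenpe, which carries chromosomes to the spindle equator, read -0.36, 0.03 and -0.62. Kif2c, a microtubule-depolymerising kinesin, read -0.28, -0.08 and -0.56. Kif18a, which damps chromosome movement, read -0.14, 0.30 and -0.37. Kif4, a chromokinesin, had the smallest difference of the motors at -0.30, with -0.18 on A close to -0.23 with IL-3 and B alone high at 0.34.

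The 8 passenger complex, spindle and cytokinesis genes had medians of -0.23 on A, 0.01 on B and -0.40 with IL-3. Birc5 (survivin), Incenp and Cdca8 (borealin) are the non-catalytic parts of the passenger complex. They read -0.38, -0.42 and -0.47 with IL-3, each below both arrays without it, with differences of -0.36, -0.23 and -0.33. Nusap1, a microtubule-bundling protein, had the lowest estimate of the group at -0.37, with -0.37 on A, -0.01 on B and -0.56 with IL-3. Ect2, the exchange factor that activates RhoA at the cleavage furrow, read -0.32, -0.07 and -0.53, and Prc1, which cross-links the central spindle, read -0.13, 0.04 and -0.31. Tpx2, an activator of Aurora A, was near or above parental without IL-3, at 0.01 and 0.40, and at -0.13 with it. Anln, the contractile ring scaffold, read -0.25 on A, 0.44 on B and -0.09 with IL-3. Its pair without IL-3 was 0.68 apart, the widest of the 49, and enclosed the array with IL-3.

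The 6 chromosome structure genes had the smallest difference with IL-3 of the groups, a median of -0.24, beside a median of B minus A of 0.35. Relative to array A alone that median was -0.08. Smc2 and Smc4, the ATPase core of condensin, read -0.10, 0.16 and -0.11, and -0.50, 0.00 and -0.44. In both, array A and the array with IL-3 were close together and B stood above them. Ncapd2 read -0.50, -0.43 and -0.65, below parental on all 3, and Ncapg, another condensin subunit, read 0.06, 0.49 and -0.13. Mki67, the chromosome-coating proliferation marker, read -0.38, -0.26 and -0.62. Top2a, the topoisomerase that untangles chromosomes, read 0.02, 0.62 and 0.02, but its 2 probe sets disagreed. The dim one read -0.02, 0.88 and 0.06, whereas the other read 0.06, 0.36 and -0.02, with the array with IL-3 below both A and B and below parental.

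A further 90 mitosis genes outside the list were taken up to see how far the pattern reached, and 87 of them were measured. Without IL-3, 3 of the 87 rose relative to parental and 2 fell, beside 5.19% and 2.87% of all genes. Mybl2, the B-Myb factor of the MuvB complex, rose by 0.86 ± 0.16 (SE; limma adjusted p = 0.00149), Cenpm by 0.52 (adjusted p = 0.0414) and Pmf1 by 0.52 (adjusted p = 0.0439). Cenpm is an inner and Pmf1 an outer kinetochore subunit. Aspm, a spindle pole protein, fell by 0.60 (adjusted p = 0.0217), and Cit, the citron kinase of cytokinesis, fell by 0.55 (adjusted p = 0.0324). With each array centred on its median, Mybl2 still passed (adjusted p = 0.0185), and Cenpm (0.0689), Pmf1 (0.0574), Aspm (0.112) and Cit (0.0885) did not. With IL-3 relative to without, 0 of the 87 passed in limma. At an unadjusted 0.05, 25 of the 87 were lower, beside 3.0% of all genes. The median of the 87 was -0.22. The array with IL-3 lay below both A and B for 71 of them, or 81.6%, against 25.5% of all genes. Aspm on the array with IL-3 was at -1.01, the lowest after Cenpf among the mitosis genes examined.

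Within these further genes the 14 of the inner kinetochore and its loading had the lowest median with IL-3, -0.36. Cenph, which works beside Cenpk, stood at -0.65 (adjusted p = 0.460), with 0.14 on A, 0.56 on B and -0.30 with IL-3. Cenpb was the highest of them at 0.19. The 16 other spindle and cytokinesis genes had a median of -0.27, from -0.67 for Depdc1a to 0.03 for Cit, and the 13 other kinases and regulators one of -0.29, from -0.45 for Pbk to 0.00 for Cks2. The 11 cohesin genes had a median of -0.27 and ran from -0.48 for Sgo1, the protector of centromeric cohesin to -0.03 for the core subunit Smc1a. The 12 outer kinetochore genes had a median of -0.24, from -0.43 for Kntc1 to 0.03 for Zwint. The 17 genes of the anaphase-promoting complex and its regulators had a median of -0.16, with Fbxo5, its inhibitor Emi1, lowest at -0.47 and the subunit Anapc7 highest at 0.08. The 4 other condensin genes had a median of -0.15, from -0.39 for Ncapg2 to -0.09 for Ncaph2.

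Genes of the preceding phase and a reference list give the setting. Of 26 measured genes of G1/S and DNA replication, 12 rose and 0 fell without IL-3 relative to parental (limma), beside 5.19% and 2.87% of all genes. Their median was 0.47, where the mitosis list stood at -0.05. With median centring 6 of the 26 rose. Relative to without IL-3 their median with IL-3 was -0.40. The array with IL-3 lay below both A and B for all 26, against 25.5% of all genes. Their median of B minus A was 0.03, beside 0.20 for the mitosis list. On the array with IL-3 their median was 0.07 from parental, beside -0.44. Whether the lists differ was not tested. The estimates with IL-3 relative to without were below 0 for all 26, and also for all 8 reference genes. The 8 reference genes had a median of -0.10 with IL-3 relative to without, and 7 of the 8 lay below both A and B, beside the same 25.5%. One of them, Gusb, rose without IL-3 relative to parental.

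**Figure D5:**
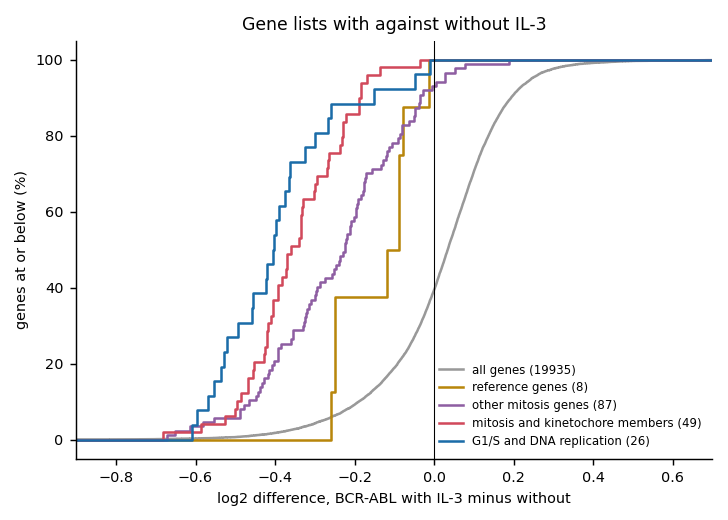
Cumulative share of genes (%) at or below each log2 difference of the array with IL-3 from the mean of A and B, for the 49 mitosis and kinetochore genes, 87 other mitosis genes, 26 G1/S and replication genes, 8 reference genes and all 19935 genes. The list medians are -0.36, -0.22, -0.40, -0.10 and 0.03.

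The values were also read by promoter motif. The 27 genes with both motifs had a median of -0.33 with IL-3 relative to without, and the 13 with a window but not both had -0.41. Among genes on none of the lists the median was 0.02 for the 1142 with both motifs and 0.03 for the 14277 others. The array with IL-3 lay below both A and B for 27.0% and 25.6% of these. Both motifs were in 28.4% of the 81 windows of the other mitosis genes and in 20.0% of the 25 windows of the G1/S genes.

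Marker genes of the B lineage and of other blood lineages were read beside these values. They were read as differences only, so whether the lineage markers of a pro-B cell line were present was not analysed here. Without IL-3 none of 11 B lineage markers passed in limma, and 6 of the 11 had a dim probe set. Of 5 erythroid markers 3 fell, or 2 with median centring or robust eBayes. Of 9 mast cell and basophil markers 2 rose, Cpa3 at 3.04 and Hdc at 0.74, and 1 fell, Cma1 at -0.90. The differences of 6 of the 9 were below 0 and those of 3 above it. A dim probe set was present in 7 of the 9. Without dim probe sets 2 of them remained, and both rose. With centring 1 of the 9 rose and 1 fell. Of 9 myeloid markers, 6 with a dim probe set, 1 fell, and without dim probe sets 1 of the 3 left fell. Among all genes 5.19% rose and 2.87% fell by the same rule. With IL-3 relative to without their medians were 0.04, 0.07, -0.05 and 0.02. Their part in the mitosis values was not tested.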

How the data were processed

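RNA in 3 groups (1, 2 and 1 arrays) was labelled and hybridised to Gene 1.0 ST arrays, per the labels' protocols. The deposited table holds 28815 probe sets as values taken to be log2, each relative to the parental array, which is 0 throughout. Background correction, summarisation and normalization are not given in the sources used here. The reference was read from the values. Of the 86431 other values 99.6% are whole multiples of one step of single-precision storage (tolerance 0.1 step). That step depends on the size of a stored number and not on the base of its log. Base 2 was therefore taken and not shown, and every fold value rests on it. A probe set was called dim where at least 1 of its values was an odd multiple of the storage step, which held for 11132 probe sets. An odd multiple marks a low stored value on that array or on the parental array. Low probe sets can miss the mark, and it does not measure signal over background. Of all probe sets 21780 had 1 symbol in the platform annotation, 1605 several and 5430 none listed, and only the first were used, averaged per gene (998 genes had several). Updated names and promoters were matched through gene identifiers (21689 probe sets matched RefSeq).

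One limma fit (version 3.58.1 in R 4.3.3) of 3 group means over all 19935 genes gave two-sided tests with Benjamini-Hochberg adjustment over all genes, called at 0.05. With A against B as the only residual degree of freedom, the fit's prior carried 16.4 degrees of freedom (5.02 after centring) and a prior SD of 0.128; the smallest difference that passed for any gene against parental cells was 0.51. A prior set from 1 degree of freedom is itself uncertain, and the adjusted p-values are approximate. Precision is limited by the number of arrays: 2 against 1 cannot go below p = 0.333 in an exact permutation test, so p-values rest on the pooled spread, which may be technical. The comparison of the 2 lone arrays has no test.

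Genes named were every member called, the 2 highest and 2 lowest of each role group in each comparison, called genes or else the extremes of the other lists, and members around the 1.5-fold limit; further members are given as values. Members and lists were chosen with earlier results of these data known. Alternatives were centring on the array median or on reference genes, an adjusted p of 0.1, no dim probe sets, robust eBayes, probe sets singly, and each array without IL-3 left out.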

Additional observations from a re-analysis of the deposited data

How the results depend on the processing

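With each array centred on its median, 1 of the 49 genes (Cenpf) instead of 2 passed in the comparison without IL-3 against parental; Cdc25b did not (adjusted p = 0.0510). Over all genes the calls went from 1607 to 936. Robust eBayes, leaving out dim probe sets and testing probe sets singly gave 2 each. Over all genes robust eBayes gave 1537 calls and leaving out dim probe sets 1505. An adjusted p of 0.1 gave 3 of the 49, beside 2058 of all 19935 genes. With IL-3 against without, 0 passed under each of these settings. At 2-fold, 1 gene instead of 9 was lower with IL-3 than parental, and centring left the count at 9. The median of the list with IL-3 against without was -0.41 after median centring, -0.26 after centring on reference genes, and -0.47 and -0.23 with A or B left out, when no degree of freedom remains for a test. Without IL-3 against parental it was -0.01 and -0.17 under the centrings and ranged from -0.18 to 0.04 with an array left out. Centring on reference genes moved the median of all genes from -0.04 to -0.17 in that comparison and from 0.03 to 0.13 with IL-3 against without. The count of genes with the array with IL-3 below both A and B was 45 and 42 under the 2 centrings, which were chosen for this count after seeing the data. No paired analysis was possible because A and B stand in 1 group only. The values are differences from 1 array, so signal over background could not be read, and the dim mark shows only a low stored value. The parental array's own error enters every value alike.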
